A study of Glycine max with 12 samples.

Results

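Transcripts of 5 soybean flowering genes were followed in leaves and roots of a line overexpressing GmZF351, which codes for a CCCH zinc finger protein. The genes were the florigen genes FT2A (Glyma.16G150700) and FT5A (Glyma.16G044100), the flowering repressor E1 (Glyma.06G207800) and the MADS-box genes DT2 (Glyma.18G273600) and AP1 (Glyma.16G091300). They were taken by gene identifier and are 5 of the 43517 gene models in the count table. RNA was sequenced from 4 groups of 3 libraries each: OE leaf and OE root came from line OE-34, and WT leaf and WT root came from its control, the cultivar Jack. All plants grew in pots and were cut at V1, the stage at which the first trifoliate leaf has opened. A single transgenic line stands for overexpression, and the promoter that drives GmZF351 and the day length during growth are not given in the sources used here.

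Florigens are small proteins of the FT family that are made in leaf veins and travel to the shoot tip, where with a bZIP partner they switch on floral MADS-box genes such as AP1. Soybean is a short-day plant, and FT2A and FT5A are its main florigen genes, which E1, a legume-specific B3-like protein made under long days, holds down. DT2 belongs to the AP1/SQUAMOSA group of MADS-box genes and makes the growth of the stem tip semideterminate by repressing the florigen antagonist DT1.

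Coordinates are those of annotation Wm82.a2.v1, and a length is the exonic length of the gene model over which reads were counted. FT2A lies on the plus strand of chromosome 16 from 31109999 to 31114963, with 4 exon blocks and a length of 892 bp. FT5A lies on the minus strand of the same chromosome from 4135885 to 4137742, with 4 exon blocks and 1103 bp. E1 is a gene without introns on the plus strand of chromosome 6, from 20207077 to 20207940, with a length of 864 bp. DT2 lies on the plus strand of chromosome 18 from 55638209 to 55646547, with 9 exon blocks and 1003 bp. AP1 lies on the plus strand of chromosome 16 from 14155790 to 14161854, with 8 exon blocks and 1194 bp. None of the 5 overlaps another model of the table, so reads of a neighbour on either strand had no shared exon through which to enter these counts. FT2A and FT5A belong to a family of similar copies, and reads that map to more than 1 place were not counted, so their absolute levels may be understated.

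Total counts per leaf library lay between 16892076 and 19041634 for OE and between 17947388 and 18326987 for WT. Root libraries held between 17801820 and 18686319 counts for OE and between 16885874 and 17330102 for WT. GmZF351 had at least 31406 counts in each OE library, leaf and root, and at most 4 in any WT library, as the labels say. The leaf markers RBCS2 and RCA11, for the small subunit and the activase of Rubisco, reached at most 5.97 CPM in any root library, and the root markers NFR5A and NINA were at 0 in all leaf libraries. RBCS2 stood at 5632 to 7608 CPM in OE leaf and 12220 to 15630 CPM in WT leaf, and RCA11 at 14590 to 15960 CPM in OE leaf and 24950 to 27240 CPM in WT leaf. Both leaf markers were thus lower in OE leaf, and their part in the results was not tested. WT root replicate 3 stood apart from the other WT root libraries, so the root results that depend on it are given with and without it.

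In leaf, both florigen genes were far lower in the overexpressor, FT5A about 51-fold and FT2A about 13-fold. E1 was about 3-fold lower, in a call that is not secure. DT2 did not pass the test in leaf, and AP1 was at or near 0 in every library. In root, DT2 was lower in the overexpressor. FT5A was called lower there on 5 counts in OE root against 21 in WT root, and that call is not secure. FT2A, E1 and AP1 had no count in any root library. No gene of the 5 was called higher in either tissue, beside 18.3% of all genes tested in leaf and 12% in root. With so few genes that could be called, this is no result about the set.

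FT5A, the most abundant of the 5 in control leaf, had 11, 22 and 17 counts in the 3 OE leaf libraries, against 618, 737 and 578 counts in the WT leaf libraries. As CPM, the usual depth-scaled count, on TMM-scaled library sizes these were 0.662, 1.34 and 1.13 CPM in OE leaf, against 51.0, 60.5 and 47.6 CPM in WT leaf. The highest OE leaf library lay far under the lowest WT leaf library. FT5A averaged 1.045 ± 0.348 CPM in OE leaf and 53.03 ± 6.67 CPM in WT leaf (SD, n = 3 each). Its log2 fold change was -5.66 (SE 0.214, 95% interval -6.1 to -5.23), a 50.6-fold lower level in OE leaf (edgeR quasi-likelihood test, Benjamini-Hochberg adjusted over the whole set of tested genes, adjusted p = 2.1e-20). In these bulk samples, fewer cells that express a gene and less RNA per cell cannot be told apart.

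FT2A had 16, 26 and 28 counts in OE leaf, against 235, 221 and 221 counts in WT leaf. These came to 0.963, 1.58 and 1.87 CPM in OE leaf, against 19.4, 18.1 and 18.2 CPM in WT leaf, and the groups did not overlap. FT2A averaged 1.471 ± 0.462 CPM in OE leaf and 18.58 ± 0.703 CPM in WT leaf (SD, n = 3 each). The log2 fold change was -3.66 (SE 0.242, 95% interval -4.16 to -3.17), a 12.7-fold lower level in OE leaf (edgeR, adjusted p = 4.23e-13).

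E1, the repressor of both florigen genes, was expressed at a low level. It had 11, 6 and 6 counts in OE leaf, against 20, 11 and 21 counts in WT leaf, or 0.662, 0.366 and 0.400 CPM in OE leaf against 1.65, 0.903 and 1.73 CPM in WT leaf. The CPM of the groups did not overlap, with WT leaf replicate 2 the nearest to OE leaf. In counts, OE leaf replicate 1 and WT leaf replicate 2 were level at 11, and their TMM factors were 0.876 and 0.665. E1 averaged 0.476 ± 0.162 CPM in OE leaf and 1.43 ± 0.456 CPM in WT leaf (SD, n = 3 each). The log2 fold change was -1.57 (SE 0.552, 95% interval -2.7 to -0.434), a 2.96-fold lower level in OE leaf (edgeR, adjusted p = 0.023). The summed counts of 23 in OE leaf and 52 in WT leaf gave a scaled ratio of 0.336, with a 95% exact binomial interval from 0.196 to 0.558 that covers counting error only. The E1 call is not secure. It ended when libraries were scaled by total counts (log2 fold change -1.19, adjusted p = 0.0689) and without OE leaf replicate 2 (adjusted p = 0.0889), OE leaf replicate 3 (0.0864), WT leaf replicate 1 (0.0791) or WT leaf replicate 3 (0.0917).

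DT2 was the only one of the 5 with at least 25 counts in every library. Its leaf counts were 127, 121 and 77 in OE leaf, against 98, 118 and 94 in WT leaf, or 7.64, 7.37 and 5.13 CPM in OE leaf against 8.09, 9.68 and 7.74 CPM in WT leaf. The CPM of the groups did not overlap, but OE leaf replicate 1 and WT leaf replicate 3 were nearly level. DT2 averaged 6.715 ± 1.38 CPM in OE leaf and 8.504 ± 1.03 CPM in WT leaf (SD, n = 3 each). The log2 fold change was -0.34 (SE 0.205, 95% interval -0.755 to 0.0809), which did not pass (edgeR, adjusted p = 0.199), and with total counts it was 0.044. The interval lies apart from those of both florigen genes.

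AP1, which gives floral meristems their identity, had 2 counts in OE leaf replicate 1, or 0.120 CPM, and 0 in the other 11 libraries. It was too low to enter the test. In a fit of every gene with a count its leaf comparison gave an adjusted p of 0.454 (edgeR, over 41449 genes). A count of 0 allows up to 3 counts in a library, which is at most 0.2 CPM in an OE leaf library, 0.248 CPM in WT leaf, 0.125 CPM in OE root and 0.141 CPM in WT root. This limit covers the 11 libraries in which AP1 had 0 counts. It does not apply to OE leaf replicate 1, where AP1 had 2 counts.

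Of the 5 genes, 4 passed the filter on low counts and 3 of these were called lower in OE leaf. FT2A and FT5A passed it through leaf, E1 through WT leaf alone and DT2 in all 4 groups, so the filter itself favoured a lower value for E1 in OE leaf, and the count of calls is no support for a shared change. Over all 35968 genes tested, 40.4% were called changed in leaf, 18.3% higher and 22.1% lower in OE leaf, so a call alone sets none of the 5 apart. For FT5A and FT2A the size of the change did differ from that of most genes. Ordered from the lowest leaf log2 fold change upward, FT5A was at rank 118 (0.328% of the way up) and FT2A at rank 401 (1.11%). E1 was at rank 1837 (5.11%), a low place that the filter favoured, and DT2 was at rank 9921 (27.6%), not an unusual place. The median absolute log2 fold change of the genes called in leaf was 0.705. Scaling by total counts moved the median of all genes by 0.377 on the log2 scale and turned the split of leaf calls into 15977 higher and 3960 lower, against 6596 higher and 7948 lower. FT5A and FT2A stayed lower in OE leaf under that scaling, with log2 fold changes of -5.28 and -3.28.

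**Figure D1:**
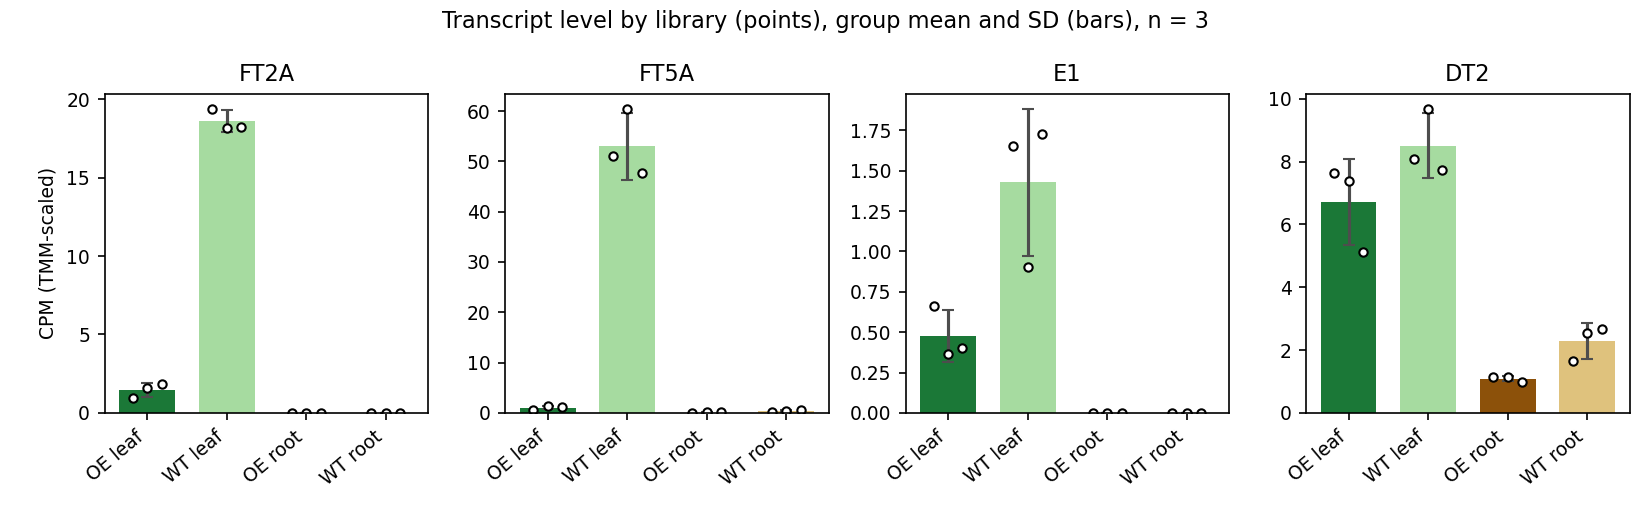
Transcript level of FT2A, FT5A, E1 and DT2 in CPM (vertical axis, a separate range for each gene) in leaf (OE, then WT) and root (OE, then WT); bars are group means, error bars the SD over 3 libraries and points the libraries. FT2A and FT5A stand at 18.58 and 53.03 CPM in WT leaf and near the axis in every other group, while DT2 is present in all 4 groups.

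In root, FT5A was detected at a trace. It had 0, 3 and 2 counts in OE root, against 2, 8 and 11 counts in WT root, or 0, 0.122 and 0.0796 CPM in OE root against 0.094, 0.377 and 0.498 CPM in WT root. The groups overlapped, since WT root replicate 1 lay under OE root replicate 2. The log2 fold change was -2.15 (SE 0.73, 95% interval -3.64 to -0.664; edgeR, adjusted p = 0.0178), a 4.44-fold lower level in OE root. The sums of 5 counts in OE root and 21 in WT root gave a scaled ratio of 0.209, with a 95% exact binomial interval from 0.0616 to 0.569. The call ended without OE root replicate 1 (log2 fold change -1.62, adjusted p = 0.0892), WT root replicate 2 (adjusted p = 0.0566), and also without the library that stood apart, WT root replicate 3 (log2 fold change -1.70, adjusted p = 0.127).

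DT2 had 27, 28 and 25 counts in OE root, against 35, 54 and 59 in WT root, or 1.13, 1.14 and 0.995 CPM in OE root against 1.65, 2.54 and 2.67 CPM in WT root. The OE root libraries lay close together and all under the WT root libraries. DT2 averaged 1.088 ± 0.0804 CPM in OE root and 2.286 ± 0.559 CPM in WT root (SD, n = 3 each). Its log2 fold change was -1.07 (SE 0.263, 95% interval -1.61 to -0.533), a 2.1-fold lower level in OE root (edgeR, adjusted p = 0.00195). The call held under all 19 alternatives, with log2 fold changes from -1.26 to -0.94 and adjusted p from 0.000587 to 0.0134. Over all genes tested, 30.1% were called changed in root, 12% higher and 18.1% lower in OE root. Of the 4 members in the test, FT2A and E1 had no root count and could not be called. The 2 calls, of FT5A and DT2, therefore cannot be set against this share. With total counts the root split was 6387 higher and 4977 lower, against 4310 higher and 6512 lower. From the lowest root log2 fold change upward FT5A was at rank 657 of 35968 (1.83%) and DT2 at rank 2267 (6.3%).

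**Figure D2:**
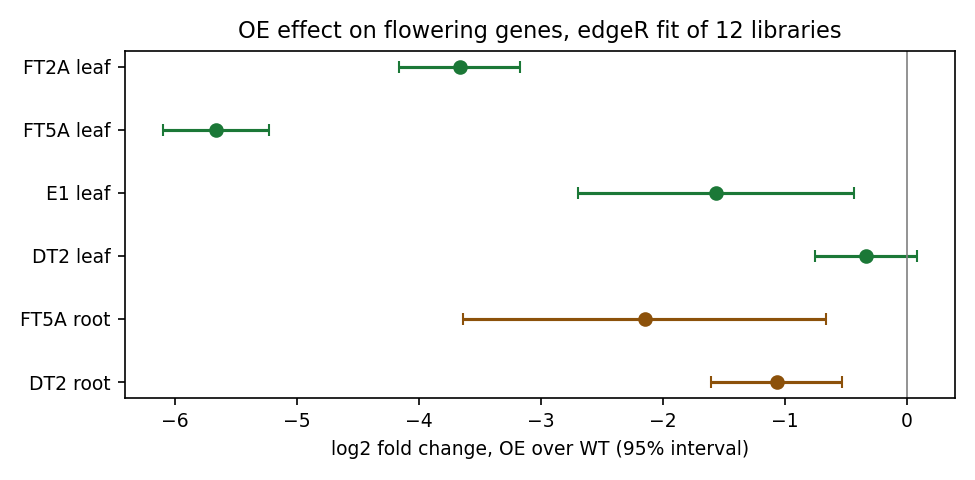
Log2 fold change of OE over WT (horizontal axis) with its 95% interval for FT2A, FT5A, E1 and DT2 in leaf (green) and FT5A and DT2 in root (brown), from the edgeR fit of 12 libraries. The intervals of FT5A and FT2A in leaf lie between -6.1 and -3.17, and that of DT2 in leaf reaches past 0 to 0.0809.

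Whether the effect differed between tissues was tested as the root effect minus the leaf effect, for which 22.8% of genes were called. FT5A fell more in leaf than in root, with a difference of 3.51 on the log2 scale (SE 1.07, 95% interval 1.33 to 5.69; edgeR, adjusted p = 0.0188). That call ended without OE root replicate 2 (2.86, adjusted p = 0.247) or OE root replicate 3 (adjusted p = 0.0924). For DT2 the difference was -0.73 (SE 0.335, 95% interval -1.41 to -0.0505), which did not pass (adjusted p = 0.115). It passed under total counts (-1.02, adjusted p = 0.0192) and without WT root replicate 1 (-0.92, adjusted p = 0.0459). A call in root and none in leaf is therefore not shown to be a difference between the tissues for DT2. FT2A and E1 had no root count in either genotype and so no root effect to compare.

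DT2, which passed the filter in both tissues, was lower in root than in leaf in both genotypes. FT2A, FT5A and E1 entered the test through their leaf counts, so their lower root values were favoured by the filter and are given as a description. In the control, 35.9% of genes tested were called lower in WT root than in WT leaf. DT2 was 3.71-fold lower in WT root (log2 fold change -1.89, SE 0.223; edgeR, adjusted p = 3.21e-09). FT5A was 160-fold lower in WT root (log2 fold change -7.32, SE 0.243), FT2A at least 133-fold lower and E1 at least 10.2-fold lower, taking 3 counts per library as the floor for root. In the overexpressor, 37.4% of genes were called lower in OE root than in OE leaf. DT2 was 6.16-fold lower in OE root (-2.62, SE 0.242; adjusted p = 1.12e-11). FT5A was 14-fold lower in OE root (-3.81, SE 0.577), FT2A at least 12-fold lower and E1 at least 3.89-fold lower. The bounds for FT2A and E1 in both genotypes hold on TMM-scaled library sizes and were not taken with total counts. Scaling by total counts moved the median of all genes by 0.91 between WT tissues and 0.62 between OE tissues. Over the alternatives the DT2 log2 fold change ran from -2.02 to -0.98 between WT tissues and from -2.80 to -2.00 between OE tissues. OE leaf and WT leaf each serve as a group in the genotype and in the tissue comparison, so the comparisons share libraries.

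Set side by side as RPKM, that is CPM per kilobase of exon, the genes came in a different order in each genotype. In OE leaf DT2 was highest at 6.69 ± 1.37 RPKM, followed by FT2A at 1.65 ± 0.518, FT5A at 0.947 ± 0.315 and E1 at 0.551 ± 0.188 RPKM. In WT leaf FT5A was highest at 48.1 ± 6.04 RPKM, followed by FT2A at 20.8 ± 0.789, DT2 at 8.48 ± 1.03 and E1 at 1.65 ± 0.528 RPKM (SD, n = 3 each). In OE leaf the range of FT5A over the libraries overlapped with that of FT2A, although FT2A was the higher of the 2 in each library. The range of FT5A also overlapped with that of E1, and E1 was the higher in 1 of the 3 libraries. In WT leaf no neighbours in the order overlapped. In root, DT2 stood at 1.08 RPKM in OE root and 2.28 RPKM in WT root, and FT5A at 0.061 RPKM in OE root and 0.293 RPKM in WT root.

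A ratio of 2 genes in the same library does not depend on how libraries are scaled, and 3 such ratios of counts per length were taken in leaf after the levels had been seen. FT5A over FT2A was 0.556, 0.684 and 0.491 in OE leaf, against 2.13, 2.7 and 2.12 in WT leaf. FT5A was the more abundant florigen transcript in every WT leaf library and the less abundant in every OE leaf library. The mean ratio was 0.577 ± 0.0984 in OE leaf and 2.31 ± 0.333 in WT leaf (SD, n = 3 each), and the difference of the mean log2 ratios, OE leaf minus WT leaf, was -2.01. E1 over FT2A was 0.71, 0.238 and 0.221 in OE leaf, against 0.0879, 0.0514 and 0.0981 in WT leaf, a difference of 2.13. E1 over FT5A was 1.28, 0.348 and 0.451 in OE leaf, against 0.0413, 0.0191 and 0.0464 in WT leaf, a difference of 4.14. Relative to either florigen transcript there was thus more E1 transcript in each OE leaf library than in any WT leaf library, although E1 itself was lower. The groups did not overlap for any of the 3 ratios. Each exact two-sided permutation test over libraries gave p = 0.1 (0.1 after Benjamini-Hochberg adjustment over the 3), the smallest that 3 against 3 libraries can give. The ratios restate the leaf changes already seen, and E1 over FT5A follows from the other 2 ratios. These tests are therefore no separate support. Leaving out any of the 6 leaf libraries kept each direction, with the log2 difference of FT5A over FT2A between -2.14 and -1.89.

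**Figure D3:**
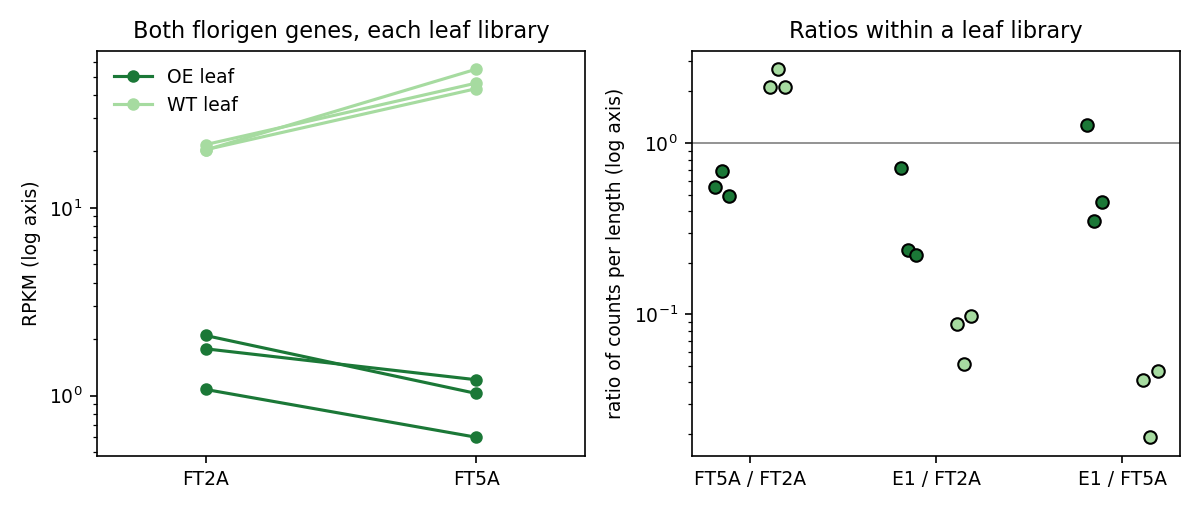
Left, RPKM (log axis) of FT2A and FT5A in each leaf library, a line joining the 2 genes of a library; right, ratios of counts per length (log axis) of FT5A to FT2A, E1 to FT2A and E1 to FT5A in the 3 OE leaf and 3 WT leaf libraries. The lines fall towards FT5A in OE leaf and climb towards it in WT leaf, where the ratio of FT5A to FT2A is 2.12 or more.

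The tested models of the count table nearest to FT2A and FT5A on chromosome 16 did not share the size of their change. Glyma.16G151000 and Glyma.16G044200, listed as florigen-family genes, are absent from the count table and could not be looked at. Of the 10 models of the count table nearest to FT2A, 5 on each side, 8 were tested in leaf, with 3 called higher and 2 lower in OE leaf. Their log2 fold changes ran from -2.64 to 0.77, the lowest from Glyma.16G151300, which had 1 count in OE leaf and 6 in WT leaf and was not called. Of those of FT5A, 9 were tested, with 1 called higher and 3 lower, and log2 fold changes from -0.72 to 0.94. Around E1, 6 were tested, with 2 called higher and 0 lower, from -0.37 to 2.14. Around DT2, 7 were tested, with 4 called higher and 1 lower, and around AP1, 8 were tested, with 3 higher and 1 lower. Over all genes tested, 18.3% were called higher and 22.1% lower in OE leaf. The counts of neighbours were not tested against these shares and are a description.

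**Figure D4:**
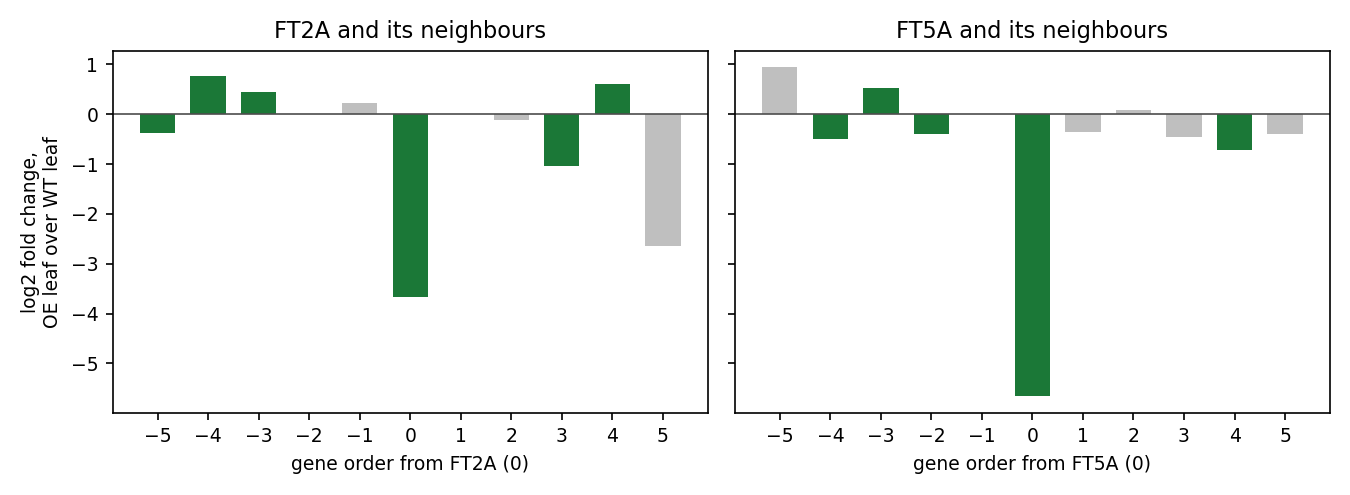
Log2 fold change of OE leaf over WT leaf (vertical axis) for FT2A (left) and FT5A (right) at 0. The 5 gene models of the count table on each side are drawn in their order along chromosome 16. Green bars have an adjusted p under 0.05 and grey bars do not. A gap marks a model that was not tested, and models absent from the count table have no gap. FT2A at -3.66 and FT5A at -5.66 reach lower than every neighbour drawn.

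Genes with the most similar pattern were sought among the 35967 other genes tested, by Pearson's r of log2(CPM + 0.5) over the 12 libraries. The 3 nearest to FT2A were Glyma.18G237900 (r = 0.9964), Glyma.01G142400 (0.9963) and Glyma.04G026400 (0.9961). For FT5A they were Glyma.02G215700 (0.9948), Glyma.14G165000 (0.9942) and Glyma.17G103300 (0.9925). E1 was nearest to Glyma.08G350800 (0.9892), Glyma.18G260000 (0.9888) and Glyma.11G091600 (0.9887), and DT2 to Glyma.18G284000 (0.9904), Glyma.14G210600 (0.9892) and Glyma.13G157300 (0.9891). Among the members, r was 0.976 for FT2A with FT5A, 0.958 for FT2A with E1, 0.907 for FT5A with E1 and 0.869 for E1 with DT2. DT2 was less like the florigen genes, at 0.841 with FT2A and 0.773 with FT5A. All these values share the gap between leaf and root libraries, which by itself gives a high r, and they are a description.

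Other genes of the flowering pathway were read from a list of 41 identifiers, of which 36 are in the count table and 19 had a name found in the symbol table. In leaf 17 of the 19 were tested, with 4 higher, 5 lower and 8 not called in OE leaf, beside 18.3% higher and 22.1% lower over all genes, and with a median log2 fold change of -0.115 against 0 over all genes. With total counts the leaf split was 9 higher and 1 lower, with a median of 0.268, so the direction of the list as a whole rests on the scaling. In root 6 were higher, 4 lower and 7 not called in OE root, beside 12% higher and 18.1% lower over all genes, with a median of 0.173 against -0.0169 over all genes. Among other florigen genes with a name found, FT1A was at 0 in all libraries and FT5B, a close copy of FT5A, had 0 counts in OE leaf and 2 in WT leaf, so neither was tested. The remaining florigen-family identifiers of the list were absent from the count table or had no name match, and their levels are not given here. FDL19, a bZIP partner of florigen, was not called in leaf (log2 fold change 0.56, adjusted p = 0.19), and was called higher with total counts (0.94, adjusted p = 0.016) and without OE leaf replicate 2 (0.84, adjusted p = 0.0456).

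The list holds 10 further MADS-box genes, of which 2 had a name found in the symbol table. These 2 were called lower in OE leaf, beside 22.1% of all genes tested. FUL2A (Glyma.05G018800, symbol FULC), a FRUITFULL homologue, averaged 6.702 ± 0.682 CPM in OE leaf and 15.42 ± 1.07 CPM in WT leaf (SD, n = 3 each; log2 fold change -1.20, edgeR adjusted p = 1.16e-08). It was not called in root (-0.17, adjusted p = 0.251), and the difference between tissues passed (1.04, adjusted p = 2.77e-05). FUL1A (Glyma.06G205800, which the symbol table lists as AP1A and which is not the AP1 above) had 0, 1 and 0 counts in OE leaf, against 2, 7 and 0 in WT leaf. Its leaf call (edgeR, adjusted p = 0.0411) ended without WT leaf replicate 2 (adjusted p = 0.457), OE leaf replicate 1 (0.121) or OE leaf replicate 3 (0.114) and with total counts (0.0571). The ratio of summed counts was 0.0843 with a 95% exact binomial interval from 0.00192 to 0.608. In root FUL1A had 17, 22 and 33 counts in OE root, against 45, 57 and 58 in WT root, and was lower in OE root (-1.34, adjusted p = 0.00868). That root call ended without OE root replicate 1 (adjusted p = 0.0607).

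Of the genes upstream of florigen, the CONSTANS-like gene COL1A (Glyma.08G255200, symbol COL2A) averaged 286.4 ± 17.3 CPM in OE leaf and 390 ± 14.5 CPM in WT leaf (SD, n = 3 each). It was called lower in OE leaf (log2 fold change -0.45, adjusted p = 0.000388), which ended with total counts (-0.063, adjusted p = 0.598). Of 10 clock and photoperiod genes, 2 were higher, 2 lower and 6 not called in OE leaf, and 5 were higher, 2 lower and 3 not called in OE root. The shares over all genes tested were 18.3% higher and 22.1% lower in OE leaf, and 12% higher and 18.1% lower in OE root. GIA (Glyma.10G221500, symbol E2), the GIGANTEA gene of the soybean maturity locus E2, averaged 66.48 ± 2.48 CPM in OE leaf and 23.87 ± 0.824 CPM in WT leaf, and 47.4 ± 4.04 CPM in OE root and 20.76 ± 3.43 CPM in WT root (SD, n = 3 each). It was higher in OE leaf (1.48, adjusted p = 2.49e-13) and in OE root (1.19, adjusted p = 2.54e-11). PRR3B (Glyma.12G073900), a pseudo-response regulator of the clock, was higher in OE leaf (1.30, adjusted p = 8.57e-07) and not called in root (0.17, adjusted p = 0.459). LUX2 (Glyma.11G136600, symbol LUXC), for an evening complex protein, was called lower in OE root (-0.65, adjusted p = 0.0206), which ended without OE root replicate 2 (adjusted p = 0.094), OE root replicate 3 (0.15), or WT root replicate 1 (0.14) or 2 (0.0507). ELF3A (Glyma.04G050200), for another evening complex protein, was lower in OE root (-0.60, adjusted p = 0.000501) and not called in leaf (0.096, adjusted p = 0.627), where it was called higher with total counts (0.48, adjusted p = 0.00428).

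The 4 LHY genes code for morning clock factors of the MYB type. In OE root, where 12% of all genes tested were called higher, all 4 were called higher. The LHY genes and ELF3A lie outside the rule for naming genes and were chosen after their values were seen, so this count is a description. LHY2B (Glyma.03G261800, symbol MYB114) averaged 251.2 ± 3.94 CPM in OE root and 148.3 ± 5.49 CPM in WT root (SD, n = 3 each; log2 fold change 0.76, edgeR adjusted p = 4.19e-09). LHY1A (Glyma.16G017400), LHY1B (Glyma.07G048500) and LHY2A (Glyma.19G260900) had root log2 fold changes of 0.40, 0.38 and 0.47, with adjusted p of 0.000174, 0.000655 and 3.47e-05. In leaf LHY1A (-0.27, adjusted p = 0.00671) and LHY2B (-0.20, adjusted p = 0.0375) were called lower in OE leaf and the other two were not, but with total counts all 4 had leaf values above 0, so the leaf direction rests on the scaling. The LHY2B leaf call also ended without OE leaf replicate 2 (adjusted p = 0.175), OE leaf replicate 3 (0.0645), WT leaf replicate 1 (0.139) or WT leaf replicate 3 (0.0976). The LHY2A leaf value (-0.19, adjusted p = 0.06) passed without OE leaf replicate 1 (0.0494), WT leaf replicate 2 (0.0149) or WT root replicate 3 (0.0385). The LHY genes are similar copies whose shared reads were not counted, so their values are uncertain.

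Of the 3 light receptors, 2 were higher in OE leaf, beside 18.3% of all genes tested. PHYA2 (Glyma.20G090000, symbol E4), the phytochrome A gene of maturity locus E4, averaged 104.8 ± 7.98 CPM in OE leaf and 54.34 ± 6.52 CPM in WT leaf (SD, n = 3 each; log2 fold change 0.95, adjusted p = 1.9e-10), and was also higher in OE root (0.53, adjusted p = 1.37e-05). CRY2A (Glyma.10G180600), for a cryptochrome, averaged 71.71 ± 3.42 CPM in OE leaf and 52.46 ± 3.67 CPM in WT leaf (SD, n = 3 each) and was higher there (0.45), and was not called in root (0.12, adjusted p = 0.289). PHYA3 (Glyma.19G224200), another phytochrome A gene, was not called in leaf (-0.15, adjusted p = 0.336; 0.23 with total counts). It averaged 3.722 ± 0.0429 CPM in OE root and 6.324 ± 0.546 CPM in WT root and was lower in OE root (-0.76, adjusted p = 0.000168).

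**Figure D5:**
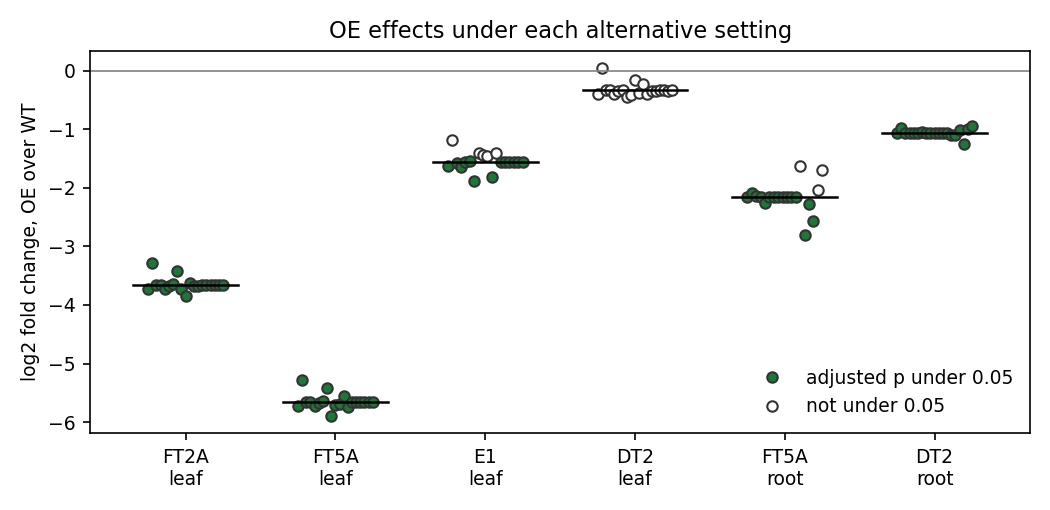
Log2 fold change of OE over WT (vertical axis) of each gene and tissue under the alternative scalings, filters, tests and left-out libraries; a line marks the reported value, filled points have an adjusted p under 0.05 and open points do not. FT2A, FT5A in leaf and DT2 in root keep their calls throughout, while E1 in leaf and FT5A in root have open points.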

How the data were processed

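Counts per gene model were deposited by the authors unnormalised, made with featureCounts 2.0.1 in paired-end mode over exons grouped by gene identifier with annotation Wm82.a2.v1, per the file headers. No aligner is named there or in the labels (not given in the sources used here). Strand, multi-mapping and multi-overlap options are absent from the command in the header. RNA was isolated with TRIzol, per the labels' protocols. Replicates are described as biological repeats, without saying whether these were single plants, so a p-value reflects only how far these libraries scatter, which may be technical. Replicates of a group differed by a chi-square per gene of 2.26 to 9.87, over genes with at least 50 counts, so each counted as its own sample.

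Counts were fitted in R 4.3.3 with edgeR 4.0.16 (robust quasi-likelihood F test, TMM scaling, filterByExpr, 1 coefficient per group, 12 libraries, 8 residual degrees of freedom). The filter kept 35968 genes, with 99.94% of counts. Adjusted p-values are Benjamini-Hochberg values over all of them, and a gene under 0.05 is called. An SE is the size of the unshrunk log2 fold change over the root of F. CPM uses TMM-scaled library sizes, with TMM factors between 0.862 and 0.889 (OE leaf), 0.665 and 0.676 (WT leaf), 1.34 and 1.35 (OE root), and 1.25 and 1.28 (WT root). RPKM divides CPM by the exonic length deposited. Count intervals and the floor of 3 counts per library cover counting error only.

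Alternatives were other scalings, filters, DESeq2 1.42.0, a replicate block, only the 2 groups compared, and each library left out. Names rest on a RefSeq symbol table of assembly Glycine_max_v4.0, matched by chromosome, symbol or synonym and a span within 10%; all 5 members matched, and of the pathway list 17 genes in the table did not and are not reported, while 5 identifiers were not analysed here. Some synonyms were added after the symbol table had been read. The members and lists were chosen with earlier results of these data known. From the list, genes called in leaf or root were named, at most 3 per role with the largest leaf change; FDL19, ELF3A and the LHY genes were named besides, with their values known. Sequences of the members were not used here.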

Additional observations from a re-analysis of the deposited data

Results flagged for a closer look

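For 12 of the genes reported the overexpression effect differed between root and leaf by the interaction test of the edgeR fit (Benjamini-Hochberg adjusted). Values are the root effect minus the leaf effect on the log2 scale. The share called in this test over all genes was 22.8%. The pathway genes were named for a call in leaf or root or with their values known, so the count of 12 is no result about the set. FT5A had 3.51, with effects of -2.15 in root and -5.66 in leaf, and the root effect rests on 5 counts in OE root and 21 in WT root. FUL2A had 1.04, with -0.17 in root and -1.20 in leaf. PRR3B had -1.13 (adjusted p = 0.000807), with 0.17 in root and 1.30 in leaf. ELF3A had -0.69 (adjusted p = 0.00694), with -0.60 in root and 0.096 in leaf. LHY1A had 0.67 (adjusted p = 2.68e-05), LHY1B 0.50 (0.00197), LHY2A 0.66 (4.86e-05) and LHY2B 0.97 (6.1e-08), with root effects above 0 and leaf effects under 0, and LHY1B fell short with total counts (0.21, adjusted p = 0.186). PHYA2 had -0.42 (adjusted p = 0.0122), with 0.53 in root and 0.95 in leaf. LUX2 had -0.93 (adjusted p = 0.0454), with -0.65 in root and 0.28 in leaf, and fell short in 10 of 18 alternatives, with adjusted p from 0.00563 to 0.137 over all 18. PHYA3 had -0.61 (adjusted p = 0.0204), with -0.76 in root and -0.15 in leaf, and fell short without OE leaf replicate 1 or OE leaf replicate 2 (0.0505 each) or WT leaf replicate 2 (0.0594). CRY2A had -0.33 (adjusted p = 0.0349), with 0.12 in root and 0.45 in leaf, and fell short in 7 of 18 alternatives, with adjusted p from 0.000125 to 0.106.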

How the results depend on the processing

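For the members, 284 of 297 alternative values kept their direction and side of the threshold, 10 fell short of it, 2 newly passed and 1 reversed, and for the named pathway genes 781 of 838 did. FT2A and FT5A in leaf kept their calls under all 19 alternatives, between -3.84 and -3.28 and between -5.89 and -5.28 on the log2 scale. The counts of called genes ran from 12794 to 19937 in leaf, 8421 to 11818 in root, 6974 to 11887 for the difference, 26254 to 31686 between WT tissues and 26860 to 30350 between OE tissues. Scaling by total counts reversed DT2 (0.044), PHYA3 (0.23), LHY1A (0.117), LHY1B (0.27), LHY2A (0.196) and LHY2B (0.178) in leaf, and the cause was not tested; it shifted the median of all genes by 0.38 in leaf, -0.28 for the difference, 0.91 between WT tissues and 0.62 between OE tissues. It split calls into 2377 higher and 9510 lower for the difference, 23894 and 7792 between WT tissues, and 21293 and 9057 between OE tissues. COL1A in root ran from -0.23 to 1.32 over left-out libraries, negative without WT root replicate 3, on 22 counts in OE root and 15 in WT root.

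Libraries with the same replicate number showed little common deviation (r from -0.0895 to 0.0782 between groups). In leaf 4 of 6 libraries correlated best with their own number, and in root 0 of 6. With 3 libraries per group these values cannot exclude a pairing, and none was used in the main fit. With the replicate block 14045 genes were called in leaf, 10219 in root and 7739 for the difference. LHY2B lost its leaf call (adjusted p = 0.0524), and no other call reported for a named gene changed. E1 gave no value under the stricter filter, and FT5A in root none in a fit of the root groups alone. Low counts limit E1 and FUL1A in leaf, FT5A in root and AP1.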
